A study of Homo sapiens with 4 samples.

Results

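The genes described here encode the subunits of the nuclear RNA polymerases I, II and III. They are the protein-coding genes whose symbol is POLR1, POLR2 or POLR3 followed by a letter from A to L, with any suffix. The rule found 32 genes among the 20263 of the deposited table, and all 32 had enough counts to be tested. By the known make-up of the enzymes, 6 of them encode subunits of polymerase I only, 2 of polymerases I and III, 9 of polymerase II only, 10 of polymerase III only, and 5 are shared by all 3 polymerases. HCT116 cells, an established human colon carcinoma line, were grown with the compound 7A (2 libraries) or with DMSO (2 libraries) for 24 h, and mRNA libraries were made from 1.4 µg of total RNA each. The series title calls 7A a neratinib derivative; neratinib is an irreversible inhibitor of the EGFR and HER2 kinases. The labels give no dose for 7A, and the growth protocol describes the other cells only as without 7A, so that they received DMSO rests on the sample titles and descriptions. The labels name no genetic change, and their genotype field only repeats 7A or DMSO. It is not stated whether the 2 libraries of a group came from separate cultures; if they did not, the p-values cover technical spread only.

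Polymerase I makes the large ribosomal RNA precursor in the nucleolus. Polymerase II makes the mRNAs of nuclear genes, and polymerase III makes tRNAs and other short RNAs. Each enzyme has a pair of large subunits that form the active site, an assembly platform, a stalk and a shared set of small subunits whose genes carry POLR2 names although all 3 enzymes need them. Colon cancer cells that divide quickly need much polymerase I and III output to make ribosomes and tRNAs. The libraries measure the mRNAs of the subunits, not the enzymes or the RNAs they make.

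Total counts were 49924044 and 61605005 in 7A replicates 1 and 2, and 31120459 and 29769568 in DMSO replicates 1 and 2. The subunit gene with the fewest counts in any library had 71. Epithelial markers of the line were present, with summed levels of 6902 and 7242 CPM (counts scaled to a common library size) with 7A, against 4118 and 3667 CPM with DMSO. KRT8 alone had 3526 and 3810 CPM with 7A and 1751 and 1568 CPM with DMSO, while CDH1 (58.8 and 64.1 CPM with 7A, 76.8 and 67.7 CPM with DMSO) and CDX2 (9.23 and 10.5 CPM with 7A, 12.2 and 12.8 CPM with DMSO) were lower with 7A. CDX1 was at 0 in every library, and VIL1, CDH17 and LGALS4 were under 1 CPM. Of 11 markers of other cells, 10 were under 1 CPM in every library, CD3E and COL1A2 being at 0; COL1A1 had 33.7 and 38.6 CPM with 7A and 57.6 and 54.7 CPM with DMSO, and its part in the results was not tested. Mitochondrial counts were 3.04% and 4.07% of the 7A libraries and 6.59% and 7.73% of the DMSO libraries; their part in the results below was not tested.

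Promoters are shown of POLR3K, the largest called rise, of POLR2F, another called rise, and of POLR2B and POLR3A, the largest called falls. POLR2K, which rose more than POLR2F (log2 fold changes of 1.37 and 1.12), is not among the promoters shown. Each window runs from 250 bases before to 50 bases after the RefSeq gene start on GRCh38.p14, read 5′ to 3′ on the gene's strand. POLR3K lies at chr16:53559-53858 on the minus strand, POLR2F at chr22:37953449-37953748 on the plus strand, POLR2B at chr4:56978646-56978945 on the plus strand and POLR3A at chr10:78029466-78029765 on the minus strand. In GENCODE 29 the POLR2F and POLR2B genes start upstream of these windows, at 37952607 and 56977722, and those starts were not searched. Capitals mark the matched motifs named below, on either strand (the CCAAT box also reads ATTGG).
POLR3K: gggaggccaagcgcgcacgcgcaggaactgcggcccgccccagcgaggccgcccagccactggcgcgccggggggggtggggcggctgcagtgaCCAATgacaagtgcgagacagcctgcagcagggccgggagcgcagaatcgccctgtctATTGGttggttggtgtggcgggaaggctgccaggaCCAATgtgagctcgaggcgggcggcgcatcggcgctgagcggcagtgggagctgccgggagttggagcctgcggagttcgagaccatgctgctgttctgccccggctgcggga
POLR2F: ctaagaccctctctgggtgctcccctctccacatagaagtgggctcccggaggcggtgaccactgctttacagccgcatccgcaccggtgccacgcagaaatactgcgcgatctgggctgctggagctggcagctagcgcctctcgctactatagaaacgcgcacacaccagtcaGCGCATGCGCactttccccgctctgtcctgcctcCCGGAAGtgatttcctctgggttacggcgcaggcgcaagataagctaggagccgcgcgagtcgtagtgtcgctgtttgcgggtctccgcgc
POLR2B: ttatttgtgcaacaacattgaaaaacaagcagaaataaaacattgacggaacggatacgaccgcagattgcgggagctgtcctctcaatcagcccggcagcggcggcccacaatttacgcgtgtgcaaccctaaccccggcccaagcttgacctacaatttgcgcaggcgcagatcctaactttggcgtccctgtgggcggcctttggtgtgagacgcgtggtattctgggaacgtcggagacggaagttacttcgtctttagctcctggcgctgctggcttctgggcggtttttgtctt
POLR3A: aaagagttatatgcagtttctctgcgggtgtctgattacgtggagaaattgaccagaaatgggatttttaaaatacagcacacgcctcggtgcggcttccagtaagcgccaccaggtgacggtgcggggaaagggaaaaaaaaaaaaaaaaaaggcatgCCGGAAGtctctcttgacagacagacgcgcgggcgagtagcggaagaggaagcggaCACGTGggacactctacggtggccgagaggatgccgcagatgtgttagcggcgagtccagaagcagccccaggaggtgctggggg
The motifs were searched on both strands of the windows of 23 subunit genes that had one, beside the windows of 11107 tested genes. The POLR3K window holds 3 matches to the CCAAT box (CCAAT), with first bases at -156, -98 and -63 from the start. The CCAAT box was found in 21.7% of the 23 subunit windows and in 36.4% of all windows. The POLR2F window holds an NRF1 site at -75 and an ETS core (CCGGAAG) at -41. The ETS core was found in 8 subunit windows (34.8%) and in 18.2% of all windows, and the NRF1 site in 1 subunit window (4.3%) and 2.2% of all. POLR3A holds an ETS core at -91 and an E-box (CACGTG, the site MYC and MAX can bind) at -35. The E-box was found in 4 subunit windows, those of POLR1G, POLR3A, POLR3C and POLR3E (17.4%), and in 10.0% of all windows. The POLR2B window held none of the motifs searched. The others searched were the ATF/CREB site (TGACGTCA; 4.3% of subunit windows and 3.2% of all), the YY1 core (AAGATGGC; 4.3% and 5.1%), the amino acid response element core (TGATGNAA; 0 subunit windows and 1.6%) and the TATA box (TATAAA; 0 subunit windows and 6.0%). No matches overlap in these 4 windows. A match is a description of the letters only.

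With 7A, 13 of the 32 subunit genes rose and 3 fell, judged by edgeR's quasi-likelihood test with Benjamini-Hochberg adjustment over all 14026 tested genes and a threshold of 0.05. These are 40.6% and 9.38% of the subunit genes, against 23.9% that rose and 24.6% that fell among all tested genes, where 48.4% were called in either direction. The median log2 fold change of 7A over DMSO was 0.38 over the subunit genes and -0.03 over all tested genes. The genes that rose were POLR1A, POLR1E, POLR1H, POLR2G, POLR2I, POLR2J, POLR3D, POLR3E, POLR3K, POLR2E, POLR2F, POLR2K and POLR2L. Those that fell were POLR2B, POLR3A and POLR3G. The 2 groups did not overlap for 27 of the 32 genes, 19 with 7A higher and 8 with 7A lower; over all tested genes 78.4% did not overlap, 38.2% being higher and 40.2% lower. In these bulk libraries, fewer cells of a type and less RNA per cell cannot be told apart. With 2 libraries against 2 an exact permutation test of a single gene cannot give a two-sided p below 0.333, so each call leans on the spread that edgeR shares across genes. Scaling by library totals alone moves the median of all genes to -0.29; 10 subunit genes were then higher and 6 lower (13.9% and 35.2% of all genes), with a subunit median of 0.11. A change of scaling moves all genes by about the same amount, so it says nothing on the distance between the subunit genes and the rest.

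**Figure D1:**
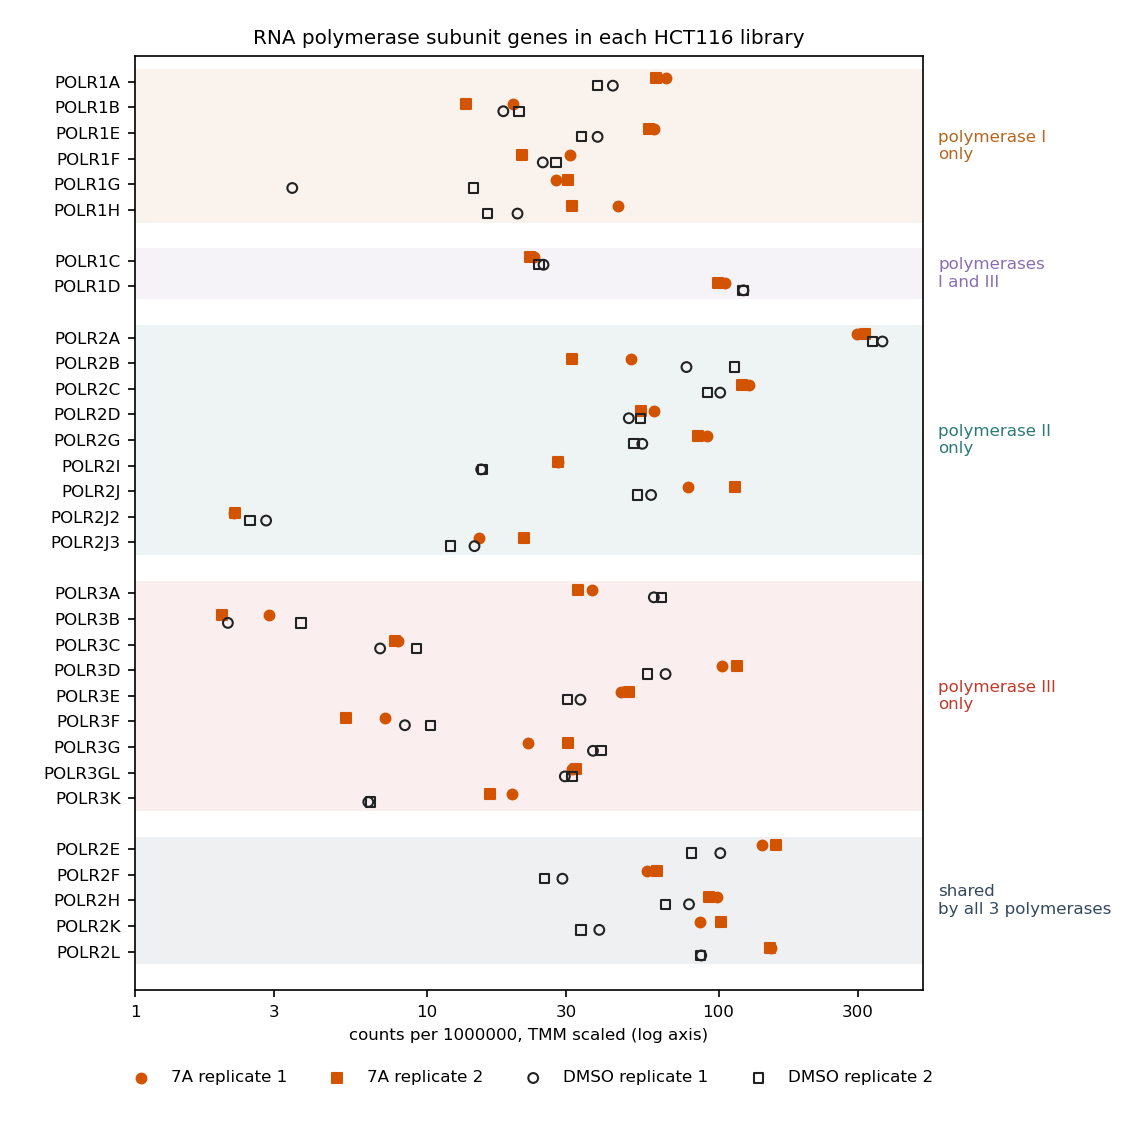
Level of 31 subunit genes in each library, in TMM-scaled CPM on a log axis, with 7A libraries filled and DMSO libraries open. Among the 5 shared genes the 7A points lie above the DMSO points for every gene, while POLR2B and POLR3A lie lower with 7A and POLR1G has DMSO libraries that stand apart (3.46 and 14.4 CPM).

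Of the 5 genes shared by all 3 enzymes 4 rose and none fell, against 23.9% and 24.6% of all tested genes, with a median log2 fold change of 0.79. The groups did not overlap for any of the 5, as was so for 78.4% of all tested genes. After the length and GC correction given below, 3 of the 5 were higher, against 29.5% of all tested genes, and the median was 0.57. POLR2K, which encodes a small zinc-binding subunit of the assembly core, had 86.4 and 102 CPM with 7A, against 39.0 and 33.8 CPM with DMSO. Both 7A libraries lay more than 2-fold above both DMSO libraries, and POLR2K rose by 1.37 ± 0.15 (log2, standard error; edgeR adjusted p 0.00102). POLR2F, which encodes a subunit that helps hold the largest subunit in the enzyme, had 56.9 and 61.6 CPM with 7A, against 29.2 and 25.3 CPM with DMSO. It rose by 1.12 ± 0.15 (edgeR adjusted p 0.00157), and the replicates of each group lay close together. POLR2L, the other small zinc-binding core subunit, had 151 and 150.2 CPM with 7A, against 87.2 and 86.6 CPM with DMSO, a rise of 0.79 ± 0.12 (edgeR adjusted p 0.0021). POLR2E, which encodes a jaw subunit that contacts the DNA ahead of the enzyme, had 141 and 157 CPM with 7A, against 101 and 80.8 CPM with DMSO. It rose by 0.71 ± 0.15 (edgeR adjusted p 0.00785), and without DMSO replicate 2 the rise was 0.56 with an adjusted p of 0.0626. POLR2H did not pass in edgeR, with 98.8 and 92.9 CPM with 7A and 79.2 and 65.6 CPM with DMSO (0.40 ± 0.14; edgeR adjusted p 0.0513), though DESeq2, which called 25.5% of all genes higher and 23.7% lower, called it (0.42; adjusted p 0.0309). Summed over the 5 shared genes, the level was 535 and 564 CPM with 7A and 336 and 292 CPM with DMSO.

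Of the 6 genes for polymerase I only, 3 rose and none fell (median 0.67), against 23.9% and 24.6% of all tested genes. POLR1A (chromosome 2, 86020216 to 86106155, GRCh38), which encodes the largest subunit with one side of the active site, had 66.3 and 61.1 CPM with 7A, against 43.4 and 38.5 CPM with DMSO. It rose by 0.64 ± 0.14 (edgeR adjusted p 0.00954); without DMSO replicate 2 the adjusted p was 0.0867, and with library totals alone 0.0708. POLR1E, which encodes the PAF53 subunit used in initiation and elongation, had 59.9 and 57.7 CPM with 7A, against 38.5 and 33.9 CPM with DMSO, a rise of 0.70 ± 0.14 (edgeR adjusted p 0.00674) whose adjusted p was 0.0653 without DMSO replicate 2. POLR1H, which encodes the subunit that cleaves the RNA when the enzyme stalls, had 45.2 and 31.4 CPM with 7A, against 20.5 and 16.1 CPM with DMSO. It rose by 1.06 ± 0.22 (edgeR adjusted p 0.00861), and the lower 7A library was still above both DMSO libraries. POLR1G, the PAF49 partner of POLR1E, had 27.6 and 30.4 CPM with 7A, against 3.46 and 14.4 CPM with DMSO. The groups did not overlap, but the DMSO libraries were far apart and the gene did not pass (1.70 ± 0.82; edgeR adjusted p 0.193). Leaving out DMSO replicate 1 gave 1.01 and leaving out DMSO replicate 2 gave 3.07. Either refit keeps 1 DMSO library, so neither measures the spread between the DMSO libraries. The second largest subunit gene POLR1B (-0.23 ± 0.21; edgeR adjusted p 0.393) and the stalk gene POLR1F (-0.01 ± 0.21; edgeR adjusted p 0.963) had overlapping groups. POLR1B had 19.7 and 13.6 CPM with 7A and 18.3 and 20.7 CPM with DMSO.

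POLR1C and POLR1D form the assembly platform of both polymerases I and III, and neither passed. POLR1C had 23.3 and 22.7 CPM with 7A and 25.1 and 24.2 CPM with DMSO (-0.10 ± 0.14; edgeR adjusted p 0.58). POLR1D had 105 and 99.9 CPM with 7A and 122 and 121 CPM with DMSO (-0.25 ± 0.12; edgeR adjusted p 0.122). The groups of both genes lay apart by a small margin, lower with 7A. POLR1D was called lower with upper-quartile scaling (adjusted p 0.0411) and with library totals alone (0.013).

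Of the 9 genes for polymerase II only, 3 rose and 1 fell (median 0.35), against 23.9% and 24.6% of all tested genes. The largest subunit gene POLR2A, whose product carries the C-terminal domain that is phosphorylated during transcription, did not pass: it had 298 and 319 CPM with 7A and 365 and 336 CPM with DMSO (-0.18 ± 0.12; edgeR adjusted p 0.233). POLR2B (chromosome 4, 56977722 to 57031168, GRCh38), which encodes the second largest subunit, had 50.1 and 31.4 CPM with 7A, against 77.6 and 113 CPM with DMSO. Replicates differed within both groups, yet the highest 7A library lay below the lowest DMSO library, and POLR2B fell by 1.23 ± 0.30 on the log2 scale (edgeR adjusted p 0.0242). Without DMSO replicate 2 the value was -0.93 (adjusted p 0.0519) and without 7A replicate 2 it was -0.94 (0.0932). The assembly platform genes POLR2C and POLR2J differed in their calls. POLR2J had 78.6 and 114 CPM with 7A, against 58.7 and 52.9 CPM with DMSO, a rise of 0.79 ± 0.20 (edgeR adjusted p 0.0159) that did not pass without DMSO replicate 2 (0.0758), without 7A replicate 2 (0.051) or with library totals alone (0.0614). POLR2C had 127 and 120.1 CPM with 7A and 101 and 91.8 CPM with DMSO (0.35 ± 0.13; edgeR adjusted p 0.0509), and DESeq2 called it (adjusted p 0.026). POLR2I, which encodes a subunit with a role in fidelity, had 28.2 and 28.3 CPM with 7A, against 15.4 and 15.5 CPM with DMSO. It rose by 0.87 ± 0.15 (edgeR adjusted p 0.00332), with replicates nearly equal.

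The stalk subunits POLR2D and POLR2G work as a pair. POLR2G had 91.6 and 84.8 CPM with 7A, against 54.8 and 51.3 CPM with DMSO, and rose by 0.73 ± 0.13 (edgeR adjusted p 0.00433). POLR2D had 60.003 and 54.2 CPM with 7A and 49.3 and 53.9 CPM with DMSO (0.15 ± 0.14; edgeR adjusted p 0.407). The ratio of POLR2D to POLR2G counts in a library was 0.655 and 0.639 with 7A and 0.899 and 1.05 with DMSO, without overlap, the smallest exact permutation p being 0.333. The longest transcripts are 5042 bases for POLR2D and 1556 for POLR2G. After the length and GC correction both genes were called, at 0.51 for POLR2D (edgeR adjusted p 0.00944) and 0.52 for POLR2G (edgeR adjusted p 0.0149). With exon length in the correction (chosen after seeing the data) the values lay further apart, at 0.389 for POLR2D and 0.6 for POLR2G. The part of length in this difference was not tested. The RPB11 copies POLR2J2 (2.18 and 2.21 CPM with 7A; 2.81 and 2.48 CPM with DMSO) and POLR2J3 (15.1 and 21.5 CPM with 7A; 14.6 and 12.1 CPM with DMSO) did not pass. They share sequence with POLR2J, so the split of reads among the 3 genes is uncertain.

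Of the 10 genes for polymerase III only, 3 rose and 2 fell, shares near the 23.9% and 24.6% of all tested genes, with a median log2 fold change of 0.01. POLR3K (chromosome 16, 46407 to 53628, GRCh38), which encodes the RNA-cleaving subunit used in termination, had 19.7 and 16.4 CPM with 7A, against 6.30 and 6.43 CPM with DMSO. Both 7A libraries were more than 2-fold above both DMSO libraries, and POLR3K rose by 1.5 ± 0.18 (edgeR adjusted p 0.00121), the largest called change among the 32 genes. POLR3D and POLR3E encode a subcomplex used in initiation and termination, and both rose. POLR3D had 103 and 115 CPM with 7A, against 65.8 and 56.9 CPM with DMSO (0.83 ± 0.14; edgeR adjusted p 0.00355). POLR3E had 46.4 and 49.5 CPM with 7A, against 33.6 and 30.3 CPM with DMSO (0.58 ± 0.15; edgeR adjusted p 0.0142). The POLR3E call was not made without DMSO replicate 1, DMSO replicate 2 or 7A replicate 2 (adjusted p 0.0519, 0.108 and 0.0518), nor with library totals alone (0.102).

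The largest polymerase III subunit moved the other way. POLR3A (chromosome 10, 77969251 to 78029545, GRCh38) had 36.9 and 32.9 CPM with 7A, against 60.01 and 63.8 CPM with DMSO. All 7A values lay well below the DMSO values, and POLR3A fell by 0.83 ± 0.14 on the log2 scale (edgeR adjusted p 0.00355). Its partner in the active site, POLR3B, had 2.88 and 1.99 CPM with 7A and 2.08 and 3.70 CPM with DMSO, with 133, 110, 71 and 121 counts in the same order (-0.25 ± 0.34; edgeR adjusted p 0.571). With this standard error a change of the size of POLR3A's could not be told from none in POLR3B. The initiation subunit genes POLR3C (-0.04 ± 0.21; edgeR adjusted p 0.902) and POLR3F (-0.59 ± 0.23; edgeR adjusted p 0.0659) did not pass. POLR3F had 7.18 and 5.29 CPM with 7A and 8.41 and 10.3 CPM with DMSO, without overlap, and was called lower with upper-quartile scaling (adjusted p 0.0342).

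**Figure D2:**
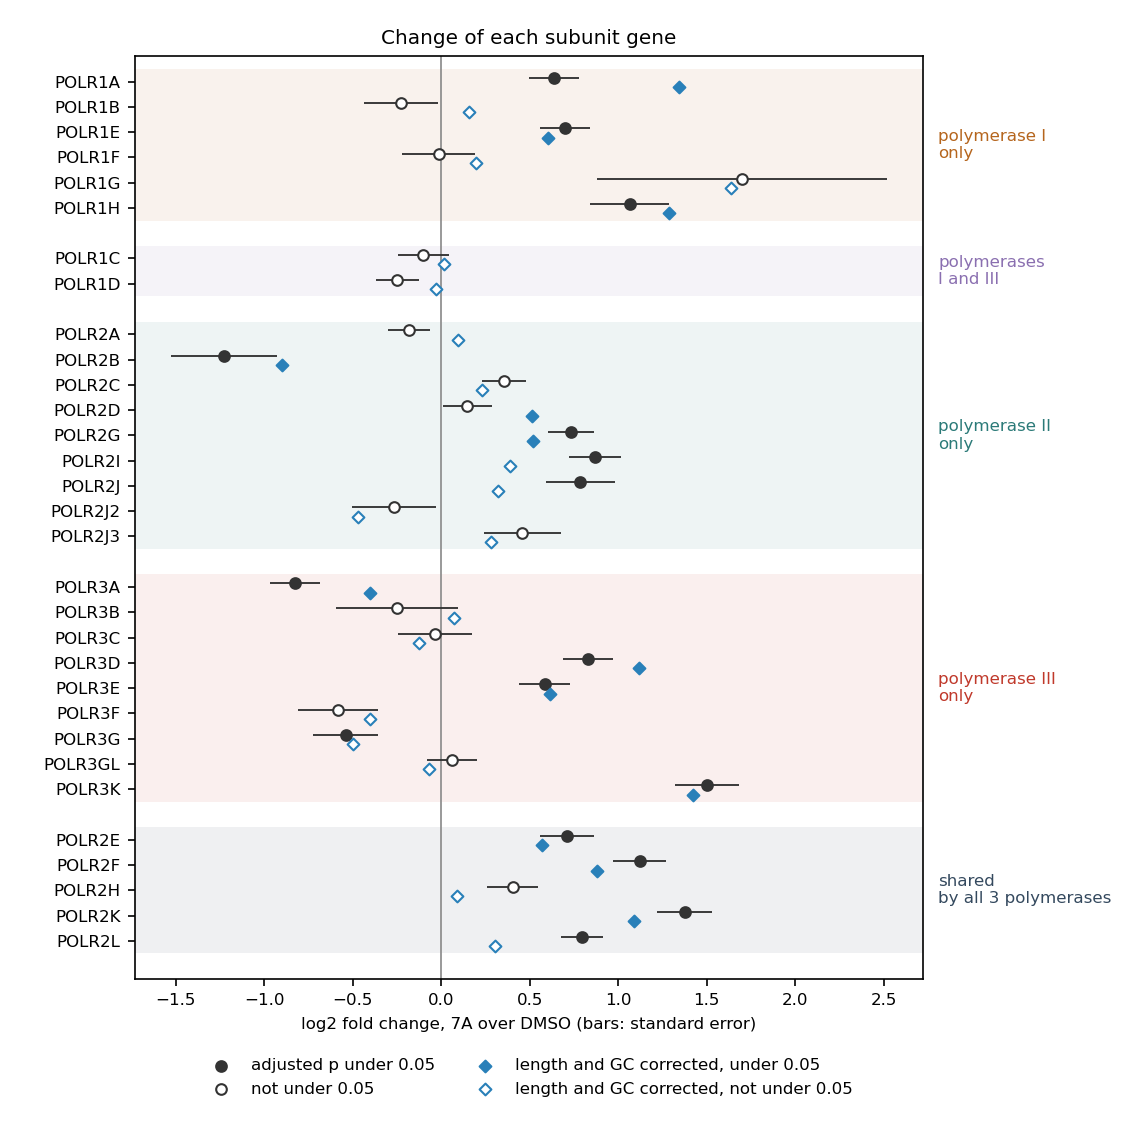
Log2 fold change of 7A over DMSO for 31 subunit genes (circles, with the standard error; filled where the edgeR adjusted p was under 0.05) and the value after correction for transcript length and GC (diamonds, filled likewise). The shared genes all lie right of 0 by both measures; POLR2B and POLR3A lie left of 0 by both, at -1.23 and -0.83 without the correction and -0.90 and -0.40 with it.

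POLR3G and POLR3GL are alternative forms of one polymerase III subunit. POLR3GL is the form of most adult cells, and POLR3G is abundant in stem cells and many tumours. POLR3G (chromosome 5, 90471748 to 90514553, GRCh38) had 22.3 and 30.4 CPM with 7A, against 37.1 and 39.5 CPM with DMSO. It fell by 0.54 ± 0.18 on the log2 scale (edgeR adjusted p 0.0442). POLR3GL had 31.4 and 32.5 CPM with 7A and 29.7 and 31.5 CPM with DMSO (0.06 ± 0.14; edgeR adjusted p 0.736). The ratio of POLR3G to POLR3GL counts was 0.709 and 0.936 with 7A and 1.25 and 1.26 with DMSO, so POLR3G had the fewer counts of the 2 genes with 7A and the more with DMSO. Per kilobase of longest transcript POLR3G was the lower in both groups, at 8.02 CPM per kb with 7A and 11.7 with DMSO, against 19.97 and 19.1 for POLR3GL. The POLR3G call was lost in more refits than that of any other of the 16: it was not made without DMSO replicate 1, DMSO replicate 2 or 7A replicate 1 (adjusted p 0.113, 0.177 and 0.159), nor with the length and GC correction (adjusted p 0.134), where the log2 fold change was -0.50 ± 0.23, close to the uncorrected one.

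**Figure D3:**
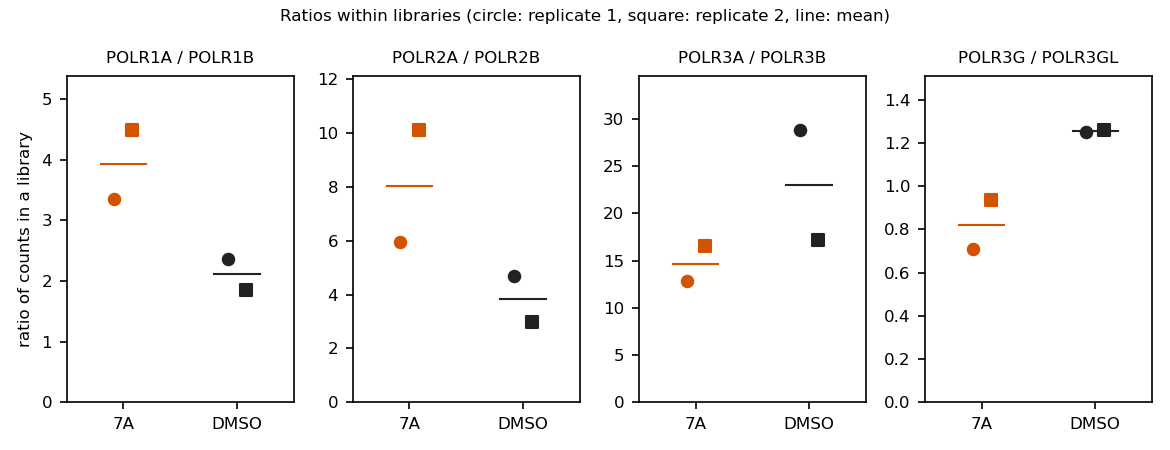
Ratio of the counts of 2 subunit genes within each library, with 7A left of DMSO; circles are replicate 1, squares replicate 2 and lines the mean of 2. The groups did not overlap in any of these 4 ratios (78.4% of single genes did not overlap either): POLR1A to POLR1B and POLR2A to POLR2B were higher with 7A, POLR3A to POLR3B and POLR3G to POLR3GL lower.

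The pair of active-site genes was also compared within each library. POLR1A to POLR1B counts stood at 3.36 and 4.49 with 7A and at 2.37 and 1.86 with DMSO. POLR2A to POLR2B stood at 5.96 and 10.1 with 7A and at 4.70 and 2.97 with DMSO. POLR3A to POLR3B stood at 12.8 and 16.5 with 7A and at 28.8 and 17.2 with DMSO. POLR3B had 133 and 110 counts with 7A and 71 and 121 with DMSO, and the source of the spread was not tested. The groups did not overlap in any of these ratios, which is also so for the levels of 78.4% of all tested genes, and 0.333 is the smallest p their exact permutation test can give. POLR3K to POLR3A, the cleavage subunit over the largest subunit, was 0.532 and 0.499 with 7A and 0.105 and 0.101 with DMSO; this pair was chosen after its values were seen.

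Per kilobase of longest annotated transcript, POLR2L led in both groups, at 169 CPM per kb with 7A and 97.4 with DMSO. With 7A it was followed by POLR2J (103) and POLR2K (92.4), whose libraries overlapped (84.3 and 122 against 84.6 and 100.2 CPM per kb), and with DMSO by POLR2J (59.9) and POLR2A (51.9). POLR2A, the third in DMSO, stood at 45.7 with 7A. POLR3B was the lowest in both groups (0.57 with 7A and 0.677 with DMSO). In polymerase I, POLR1E stood at 26.4 with 7A and 16.2 with DMSO, while the active-site genes POLR1A and POLR1B stood at 4.99 and 3.29 with 7A and 3.21 and 3.86 with DMSO. The longest annotated transcript need not be the one expressed, so these levels between genes are approximate.

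Transcript length moved with these changes. Of the 9 subunit genes with a longest transcript under 2000 bases 6 rose and none fell, with a median log2 fold change of 0.79; of all genes of that length 40.9% rose and 10.1% fell, with a median of 0.41. Of the 12 between 2000 and 4000 bases 4 rose and 1 fell (median 0.41), against 26.7% and 18.2% of all such genes (median 0.09). Of the 11 of 4000 bases or more 3 rose (POLR1A, POLR3D and POLR3E) and 2 fell (POLR2B and POLR3A), with a median of -0.18; of all such genes 14.2% rose and 36.4% fell, with a median of -0.32. The part of transcript length in the calls was not tested beyond the correction that follows. Across the 32 genes, which share the 4 libraries, the log2 fold change and log2 transcript length had a Pearson r of -0.39 and a Spearman rho of -0.41; across all tested genes these were -0.29 and -0.34.

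**Figure D4:**
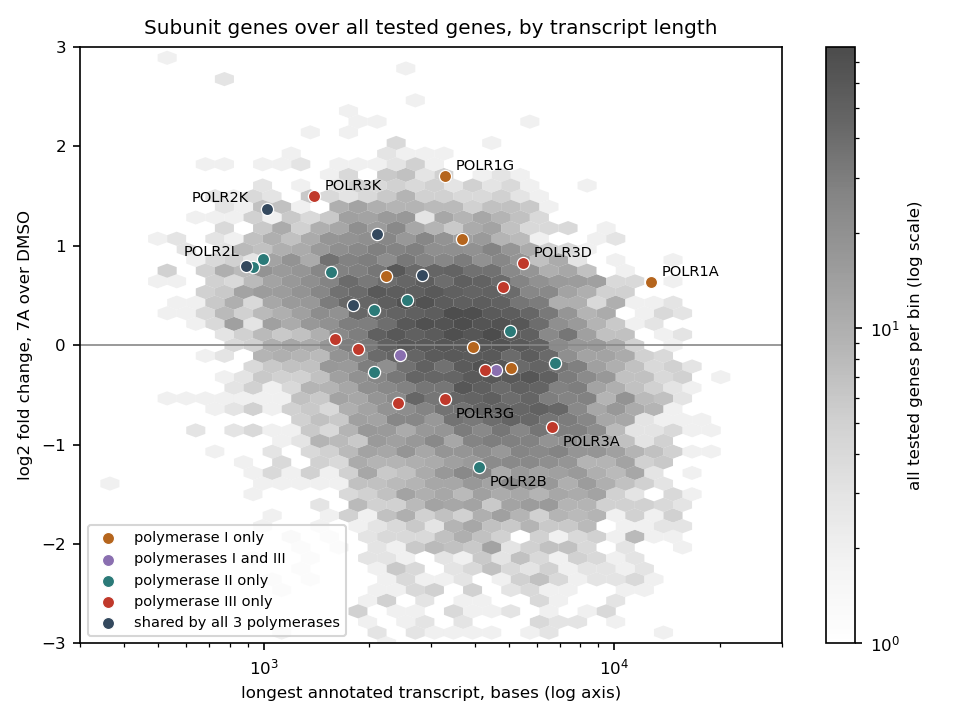
Log2 fold change of 7A over DMSO against the longest annotated transcript of each gene in bases (log axis), with 31 subunit genes coloured by enzyme over the density of all tested genes within 3 log2 units of 0. POLR2K and POLR2L, both under 2000 bases, lie at 1.37 and 0.79, where the median of all tested genes of that length was 0.41. POLR1A, the longest subunit gene at 12749 bases, lies above most genes of its length.

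After a per-library correction for transcript length and GC, 11 subunit genes were higher and 2 lower, while 29.5% of all genes were higher and 18.9% lower. The subunit median was then 0.26 and that of all genes 0.09. POLR2I (0.39; edgeR adjusted p 0.0637), POLR2J (0.32; 0.0938) and POLR2L (0.30; 0.0838) no longer passed, and POLR2D did (0.51; 0.00944). POLR1A stood at 1.34 (edgeR adjusted p 0.0016), POLR3D at 1.12 (0.00195), POLR2K at 1.09 (0.00543) and POLR3K at 1.42 (0.00189). POLR2B and POLR3A were still called lower, at -0.90 (0.023) and -0.40 (0.031). By class the corrected median was 0.94 for polymerase I only, -0.01 for polymerases I and III, 0.28 for polymerase II only, 0.00 for polymerase III only and 0.57 for the shared genes. This correction used the longest annotated transcript, which need not be the one expressed. With exon length in its place (chosen after seeing the data), POLR1A, POLR3D, POLR2K and POLR3K stood at 1.1, 0.945, 1.29 and 1.55.

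Polymerase genes outside the symbol rule were also read. CRCP, which encodes a polymerase III subunit, had 10.1 and 12.1 CPM with 7A, against 7.18 and 5.11 CPM with DMSO, and rose by 0.85 ± 0.23 (edgeR adjusted p 0.0192). POLRMT, the mitochondrial RNA polymerase, had 312 and 323 CPM with 7A, against 175 and 147 CPM with DMSO, and rose by 0.98 ± 0.13 (edgeR adjusted p 0.00155). POLR2M, which encodes a protein that binds polymerase II and limits its initiation, had 68.0 and 28.4 CPM with 7A and 19.9 and 42.7 CPM with DMSO (0.62 ± 0.68; edgeR adjusted p 0.507).

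The factors that work with each enzyme were counted in the same fit, in which 23.9% of all tested genes rose and 24.6% fell. Of 9 polymerase I factors 3 rose and 1 fell (median 0.32): UBTF, which opens rDNA for the polymerase, rose by 1.15 and TAF1D of the promoter selectivity factor by 0.92, and the termination factor TTF1 fell by 0.98. Of 17 polymerase III factors 6 rose and 1 fell (median 0.09): GTF3C6 and GTF3C4, both of the TFIIIC complex, rose by 1.58 and fell by 1.19, and GTF3A rose by 0.96. Of 15 assembly factors 7 rose and 2 fell (median 0.21), with PFDN2 at 1.48 and RUVBL1 at 1.12, and RPAP3 and DNAAF10 at -0.67 and -0.86. Of 31 general polymerase II factors 10 rose and 2 fell (median 0.22), with TAF10 at 1.41 and the TFIIH kinase gene CDK7 at 0.71, and TAF1 and TAF2 at -1.25 and -0.88. Of 29 pausing and elongation genes 9 rose and 9 fell (median -0.14), with NELFCD at 0.94 and SSRP1 at 0.61, and RTF1 and AFF4 at -0.99 and -0.97. After the length and GC correction 10 of these 29 genes were higher and 4 lower, against 29.5% and 18.9% of all tested genes. Of 30 Mediator genes, whose complex links activators to polymerase II, 6 rose and 6 fell (median -0.11), with MED22 at 1.15 and MED24 at 0.77, and MED14 and MED23 at -1.56 and -1.14. The Mediator counts are near the shares of all genes, and no list was tested as a set. After the length and GC correction TAF2 (-0.45; edgeR adjusted p 0.0828), AFF4 (-0.14; 0.273) and RPAP3 (-0.48; 0.064) no longer passed.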

How the data were processed

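Per the labels' protocols, RNA of HCT116 cells was taken with an RNeasy kit and made into libraries with a dual-mode mRNA kit. The deposited table holds raw read counts per Ensembl gene, a unit read from the table's name and its whole numbers with unequal totals. Of the counts from 1 to 20, 64.9% and 64.1% were even in 7A replicates 1 and 2, and 63.9% and 64.7% in DMSO replicates 1 and 2. Whether each count is an independent read was not tested. Builds listed in the submitters' processing notes are hg38, mm10 and GRCm38, while every identifier is human. No source used here gives the aligner, counter, strand setting or annotation. Symbols came from a table of gene IDs (20224 of 20263 have one), and biotype, position, length and GC from GENCODE 29 on GRCh38. Promoter windows came from RefSeq on GRCh38.p14.

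Counts were fitted with edgeR 4.0.16 in R 4.3.3 (filterByExpr with a minimum count of 10, TMM scaling, robust quasi-likelihood F test without a replicate block, Benjamini-Hochberg over 14026 genes). The TMM factors were 0.926 and 0.897 for 7A and 1.1 and 1.1 for DMSO. CPM values use these scaled totals. A standard error is the log2 fold change over the square root of F. Alternatives were DESeq2 1.42.0, RLE and upper-quartile scaling, library totals alone, other filters and a replicate block. Further ones were the stricter threshold 0.01, leaving out each library in turn, and a correction for length and GC. For that correction, each library's log2 CPM (prior count 2) was taken as a difference from the gene's mean over all libraries. Splines on length and GC with 5 degrees of freedom were fitted to these differences and used as offsets. The fit was tested on simulated data. An observed count of 0 allows up to 3 counts at 95% confidence, for counting error only and if counts are independent.

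Subunit genes are named (31; 1 more is in the counts and medians but is not reported singly here), with up to 2 genes per direction and list by the smallest adjusted p, and CRCP, POLR2M and POLRMT. The members, classes and lists were chosen with earlier results of these data known. Python 3.11.15, pandas 2.3.3 and matplotlib 3.10.9 made tables and plots.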

Additional observations from a re-analysis of the deposited data

How the results depend on the processing

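Of the 16 called subunit genes, 7 kept their direction and their call in all 13 refits (POLR1H, POLR2F, POLR2G, POLR2K, POLR3A, POLR3D and POLR3K), 9 lost the call in at least 1, and none changed direction. Without DMSO replicate 2, 7 calls were lost. The count of higher subunit genes ranged from 9 to 14 with 1 library left out, that of lower ones from 1 to 2, that of all changed genes from 3864 (without DMSO replicate 2) to 5673, and that of changed factor genes in the lists from 36 to 60, against 64. A threshold of 0.01 left 11 subunit genes higher and 1 lower (POLR3A), 3860 genes in all and 33 factor genes. In these counts of factor genes, CRCP, POLR2M and POLRMT are taken in with the lists. The lower subunit genes were 5 with upper-quartile scaling, 6 with library totals alone and 5 with the filter of 5 CPM. In the same order the lower genes among all tested ones were 4059 of 14026, 4934 of 14026 and 2916 of 11207. In the fit used above they were 3446 of 14026.

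The polymerase I median was 0.401 with library totals alone, 0.945 with the length and GC correction and 0.847 with exon length in it (a correction chosen after seeing the data). In the same order the shared median was 0.528, 0.571 and 0.593, and that of polymerases I and III -0.442, -0.00737 and 0.195, with -0.287 under upper-quartile scaling and -0.259 under the 5 CPM filter. The polymerase II median was 0.242 with upper-quartile scaling and 0.0876 with library totals, and 0.214 to 0.435 with 1 library left out. That of polymerase III was -0.098, -0.254 and -0.0222 with upper-quartile scaling, library totals and the 5 CPM filter, and -0.0946 to 0.157 with 1 library left out.

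No sign change met a called gene. The length and GC correction gave 0.157 for POLR1B, 0.195 for POLR1F, 0.0132 for POLR1C, 0.0918 for POLR2A, 0.0726 for POLR3B and -0.068 for POLR3GL. With exon length it gave 0.1 for POLR1B, 0.153 for POLR1F, 0.154 for POLR1C, 0.236 for POLR1D, 0.025 for POLR3B and -0.00388 for POLR3GL. Library totals gave -0.119 for POLR2D and -0.205 for POLR3GL. POLR3GL was -0.0492 with upper-quartile scaling and -0.0222 with the 5 CPM filter, and POLR1F 0.00123 with no filter. With 1 library left out POLR1B ranged from -0.497 to 0.0103, POLR1F from -0.289 to 0.227, POLR3B from -0.6 to 0.228 and POLR3C from -0.219 to 0.191. The cause was not tested.

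The replicate numbers are shared by the groups, but nothing says that they pair the samples, and same-numbered libraries did not deviate together (r = -0.0503 across genes). A fit with the replicate number as a block called 6216 genes, with 13 subunit genes higher and 3 lower, and changed no call among the 31 genes shown singly.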

Other observations

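Exons of 16 of the 32 subunit genes share bases with another counted gene, and whether the counting used strand is not given, so reads from those bases cannot be assigned with certainty. For 5 of them, POLR1G, POLR2I, POLR2J2, POLR2L and POLR3GL, 1 such gene covers at least 20% of the exon bases. Genes without counts here were left out of these numbers. Among those, POLR1HASP on the other strand covers 24.5% of POLR1H, and a gene without a symbol covers 61.9% of POLR2I. POLR2J3 shares 26.9% with UPK3BL2 and 49.3% with another entry of its own symbol. POLR1G shares 43.5% of its exon bases with ERCC1, a DNA repair gene on the other strand, which had 157 and 185 CPM with 7A and 117 and 108 CPM with DMSO (0.61 ± 0.13; edgeR adjusted p 0.00949). The 2 DMSO libraries of ERCC1 did not stand apart as those of POLR1G did. POLR2L shares 22.5% with CD151, a tetraspanin gene, which rose by 1.12 ± 0.13 (edgeR adjusted p 0.00109), and POLR2I shares 32.9% with TBCB, a tubulin folding gene, which did not pass (0.19 ± 0.14; edgeR adjusted p 0.307).

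POLR3K and POLR3G each overlap the gene on the other strand by a short stretch of exon, and both neighbours were called in the same direction as the subunit gene. SNRNP25, a minor spliceosome gene that shares 153 bases with POLR3K, had 20.3 and 16.4 CPM with 7A, against 7.71 and 7.25 CPM with DMSO, and rose by 1.29 ± 0.19 (edgeR adjusted p 0.00196). MBLAC2, which shares 260 bases with POLR3G, had 4.07 and 3.78 CPM with 7A, against 7.62 and 9.12 CPM with DMSO, and fell by 1.09 ± 0.20 on the log2 scale (edgeR adjusted p 0.00471). NOA1, a mitochondrial GTPase gene that shares 463 bases with POLR2B, had 67.2 and 73.8 CPM with 7A and 72.8 and 68.8 CPM with DMSO (-0.01 ± 0.13; edgeR adjusted p 0.975), beside the fall of POLR2B. C22orf23, which shares 7 bases with POLR2F, fell by 0.84 ± 0.19 on the log2 scale (edgeR adjusted p 0.0107), while POLR2F rose. Of all tested genes 48.4% were called in either direction. These neighbours were chosen after their values were seen, and not all are listed.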
